A study of Mus musculus with 12 samples.

Results

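The genes described are 10 that encode non-collagenous proteins of the extracellular matrix in mouse embryonic fibroblasts (MEFs). They comprise the glycoproteins Fn1, Tnc, Postn, Thbs1, Thbs2 and Sparc and the genes of the elastic fibre Fbn1, Eln, Lox and Fbln5. They were chosen by name and found by Entrez Gene number as 10 of the 24100 genes counted, and all 10 were among the 14263 genes that passed the filter on low counts. RNA was sequenced from WT (Rtf2+/+) and RTF2-deficient (Rtf2-/lox) MEFs of 2 lines obtained from different mothers, with 3 technical replicates for each line and genotype, 12 libraries in 4 groups. All groups, WT included, received Cre 72 hrs before collection, a recombinase that deletes the floxed stretch of Rtf2 where one is present. The MEFs had been immortalized with SV40, and Cre came by retrovirus. Within a line the genotypes come from different embryos, so genotype and embryo cannot be told apart there, and the p-values measure the spread between technical replicates and not that between embryos. Library totals lay between 39360167 and 44695002 counts. Rtf2 itself averaged 45.6 and 53.9 CPM (counts scaled to library size with TMM factors) in WT lines 1 and 2 and 5.79 and 6.50 CPM in the RTF2-deficient lines, in the direction the labels give.

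Fibroblasts secrete fibronectin (Fn1), which integrins on the cell surface assemble into fibrils that other matrix proteins bind. Matricellular proteins such as tenascin-C (Tnc), periostin (Postn), the thrombospondins (Thbs1 and Thbs2) and SPARC modulate how cells attach to that matrix rather than bearing load themselves. An elastic fibre forms when tropoelastin (Eln) is deposited on microfibrils of fibrillin-1 (Fbn1) with the help of fibulin-5 (Fbln5) and is cross-linked by lysyl oxidase (Lox), and latent TGF-beta binding proteins attach to the same microfibrils.

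RefSeq promoter sequences on build GRCm38.p6 were at hand for 6 of the 10 members, namely Tnc, Postn, Thbs2, Sparc, Fbn1 and Fbln5, with 9 annotated start sites in all. Tnc is shown because it carried the genotype difference, Postn and Thbs2 because they varied widely between replicates, and Sparc because it varied least. Each line gives 30 bases of the sense strand, from 45 to 16 bases before a start site, where a TATA box lies in genes that have one, and capitals mark TATATAA.
Tnc, upstream start, chr4:64047031-64047060, minus strand: gggagggctgtgcctttaactcaccaactg
Tnc, downstream start, chr4:64046952-64046981, minus strand: agaggaaggagctcccTATATAAgcctgcc
Postn, upstream start, chr3:54359222-54359251, plus strand: tgtctccggctctttttttttttttttttt
Postn, downstream start, chr3:54361062-54361091, plus strand: ctcccacagcccagagcTATATAAactcag
Thbs2, chr17:14694278-14694307, minus strand: ctgtctggaaagcctgggtggacctgtagg
Sparc, chr11:55420096-55420125, minus strand: tgaccctcatgtctgtttaggcaggagccc
TATATAA began at position -29 of the downstream Tnc start and at position -28 of the downstream Postn start, where it overlaps a TATAAA at position -26. It was in this 30-base stretch, on the sense strand, of 2 of the 9 member start sites and of 0.639% of the 32851 start sites in the whole table, and TATAAA was in it at 1 of 9 and 2.14%. In the whole 300-base sequence and on both strands, TATAAA was found at 4 of 9 member sites, of which the 2 Tnc sites share the same motif in overlapping windows, and 13.6% of all sites, whereas TGANTCA, the letters bound by AP-1, and GGAATG, those bound by TEAD factors, were at 0 of 9 member sites and at 7.81% and 14.7% of all sites. The match describes these letters in these windows only, and which start the MEFs used was not measured.

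The members differed widely in level. In WT line 1 the order of the mean level, in CPM per kilobase of merged exon, was Thbs1 at 1919 ± 248 (SD, n = 3), Sparc at 864 ± 71.8, Lox at 862 ± 251, Fn1 at 731 ± 144, Tnc at 147 ± 18.0, Fbln5 at 103 ± 36.0, Fbn1 at 53.6 ± 9.40, Thbs2 at 43.1 ± 13.0, Postn at 38.9 ± 18.8 and Eln at 29.1 ± 18.7. The neighbours Sparc, Lox and Fn1 lay within their spread of each other, as did Tnc and Fbln5 and the run from Fbn1 to Eln. Together the 10 genes took between 2.12% and 3.93% of all counts in a library, and Thbs1 alone took between 0.855% and 1.58%.

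RTF2 deficiency went with a higher level of a single member, Tnc, when both lines were fitted together. Its level was 1.63-fold that of WT, and 1 of 10 members passed an adjusted p of 0.05 with edgeR's quasi-likelihood test over all genes, against 13.2% of all genes tested. The passing share was 4.98% of all genes in the higher direction and 8.18% in the lower direction, in which no member passed. At a log2 fold change beyond 1 as well, 0 of 10 members and 1.72% of all genes were called. At an unadjusted p under 0.05 there were 3 members, Tnc, Sparc and Fbn1, and DESeq2 passed Tnc and Sparc. Over all genes DESeq2 passed 2702 here and edgeR 1878. The share of all genes at an unadjusted p, and with DESeq2 in the other comparisons, was not counted for the fits of 12 libraries. Counts of members by those criteria, here and below, therefore have no share to be set against. The fold change was above 0 for 9 of the 10 members, with a median log2 fold change of 0.24 where the median of all genes tested was 0.0019 and 50.4% of them were above 0. By line, 6 of 10 members were above 0 in line 1, with a median of 0.04 and 51.5% of all genes above 0, and 9 of 10 in line 2, with a median of 0.33 and 49.5% of all genes. These were bulk libraries, in which fewer cells of a type and less RNA per cell cannot be told apart.

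**Figure D1:**
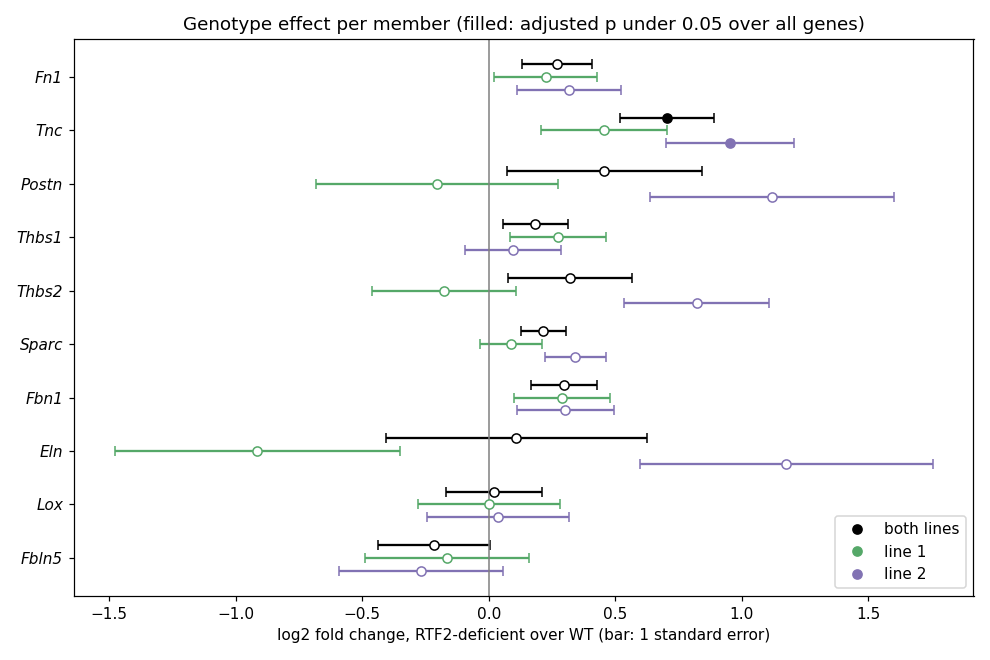
Log2 fold change of each member, RTF2-deficient over WT (horizontal axis), fitted over both lines (black), in line 1 (green) and in line 2 (purple), with bars of 1 standard error. Tnc holds the only filled points (adjusted p under 0.05 over all genes), at 0.70 in both lines and 0.95 in line 2, and Postn, Thbs2 and Eln lie below 0 in line 1 and above 0 in line 2 without passing in either. The fits shown have no replicate block, with which Eln, Tnc and other members passed in line 1.

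Tnc (Entrez 21923, chr4:63959785-64047015) encodes tenascin-C, a large hexameric glycoprotein that lowers cell adhesion to fibronectin. It measured 1053, 1067 and 1302 CPM in replicates 1 to 3 of WT line 1 and 1221, 1433 and 2039 CPM in RTF2-deficient line 1. In line 2 it measured 1035, 746 and 1210 CPM in WT and 1689, 2578 and 1524 CPM in RTF2-deficient MEFs. The genotypes overlapped in line 1, where the lowest RTF2-deficient library was under the highest WT library, and did not overlap in line 2. The log2 fold change over both lines was 0.70 (SE 0.185, adjusted p = 0.0277, edgeR), with 0.46 in line 1 (SE 0.250, adjusted p = 0.486) and 0.95 in line 2 (SE 0.251, adjusted p = 0.0312). The difference between these effects was 0.50 (95% confidence interval -0.28 to 1.27, adjusted p = 0.874). Without RTF2-deficient line 1 replicate 3, WT line 2 replicate 2 or RTF2-deficient line 2 replicate 2 the call over both lines was lost, at adjusted p between 0.0539 and 0.0705 and log2 fold changes between 0.56 and 0.63. In line 2 alone the call was lost without WT replicate 1 or 2 or RTF2-deficient replicate 1 or 2, at adjusted p between 0.0556 and 0.136, and in a fit of its 6 libraries only, at 0.0745. With the triplicates summed to 4 samples the fold change stayed at 0.70 and the adjusted p was 0.188, where no gene of the table passed.

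**Figure D2:**
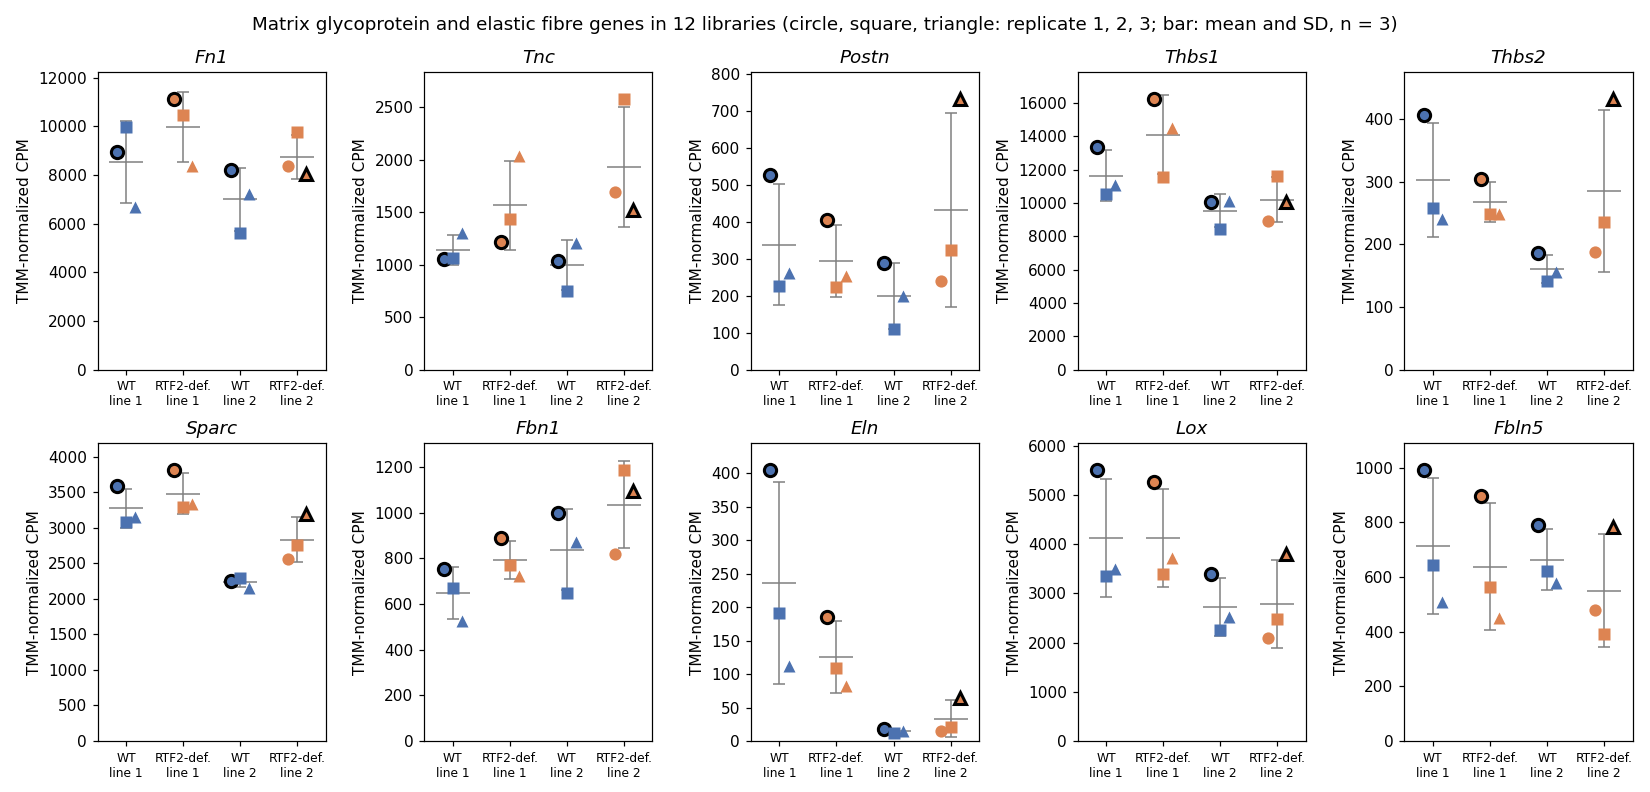
TMM-normalized CPM of the 10 members (vertical axes, linear from 0) in WT (blue) and RTF2-deficient (orange) MEFs of both lines, 1 point per library, with the group mean and SD (n = 3) in grey and a black outline on the library with the highest interferon score of its group. Tnc in line 2 runs from 746 to 1210 CPM in WT and from 1524 to 2578 CPM in RTF2-deficient MEFs, and Eln is at most 64.6 CPM in any library of line 2 and at least 81.4 CPM in any of line 1.

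Fn1 (Entrez 14268, chr1:71585473-71653280), the fibronectin gene, was among the most abundant messages, with group means between 7004 and 9983 CPM. Its log2 fold change was 0.27 over both lines (SE 0.138, adjusted p = 0.221), 0.22 in line 1 and 0.32 in line 2, and the genotypes overlapped in both lines. The 95% confidence interval over both lines ran from -0.03 to 0.57. Thbs1 (Entrez 21825, chr2:118111876-118127133), a trimeric thrombospondin that binds CD47 and activates latent TGF-beta, gave 0.18 (SE 0.129, adjusted p = 0.368). It spanned 10540 to 13370 CPM in WT line 1 and 11550 to 16250 CPM in RTF2-deficient line 1.

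Thbs2 (Entrez 21826, chr17:14665500-14694262), the related thrombospondin that promotes clearance of matrix metalloproteinases, took opposite signs in the lines. In line 1 it measured 407, 258 and 241 CPM in WT and 304, 249 and 248 CPM in RTF2-deficient MEFs. In line 2 it measured 185, 142 and 156 CPM in WT and 188, 235 and 432 CPM in RTF2-deficient MEFs, so that all 3 RTF2-deficient libraries were above all 3 WT libraries, the lowest only just. Its log2 fold change was -0.18 in line 1 and 0.82 in line 2 (SE 0.286, adjusted p = 0.0872 with edgeR, passing with DESeq2), and the difference of 0.999 had an adjusted p of 0.469.

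Postn (Entrez 50706, chr3:54359267-54391041) encodes periostin, which links fibronectin, tenascin-C and collagen and aids activation of lysyl oxidase. It measured 527, 227 and 262 CPM in WT line 1 against 404, 224 and 253 CPM in RTF2-deficient line 1. In line 2 it measured 289, 110 and 198 CPM in WT against 240, 324 and 732 CPM in RTF2-deficient MEFs. The genotypes overlapped in both lines, and a single library was far above its sisters in 2 groups, replicate 1 in WT line 1 and replicate 3 in RTF2-deficient line 2. The log2 fold change was -0.20 in line 1 and 1.12 in line 2 (SE 0.483, adjusted p = 0.158), neither of which passed.

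Sparc (Entrez 20692, chr11:55394159-55420080), a collagen-binding glycoprotein that limits cell spreading, was the steadiest member. In line 2 it measured 2253, 2299 and 2156 CPM in WT and 2561, 2753 and 3187 CPM in RTF2-deficient MEFs, without overlap. In line 1 the groups overlapped, at 3079 to 3583 CPM in WT and 3289 to 3808 CPM in RTF2-deficient MEFs. The log2 fold change was 0.21 over both lines (SE 0.0890, adjusted p = 0.136), 0.09 in line 1 and 0.34 in line 2 (adjusted p = 0.0915 with edgeR, passing with DESeq2), and DESeq2 also passed it over both lines.

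Of the elastic fibre genes, none passed in either line or over both without a replicate block, and with the block in line 1, given further on, Fbn1, Eln and Fbln5 did. Fbn1 (Entrez 14118, chr2:125300594-125506485), the microfibril backbone, had group means from 649 to 1034 CPM and gave 0.29 in line 1 and 0.30 in line 2, with overlapping genotypes in both and an adjusted p of 0.156 over both lines. Lox (Entrez 16948, chr18:52516060-52529867), the copper enzyme that cross-links elastin and collagen, had means of 4119 ± 1199 CPM in WT and 4123 ± 998 CPM in RTF2-deficient MEFs of line 1 and of 2720 ± 592 and 2790 ± 894 CPM in those of line 2 (SD, n = 3). Its log2 fold change over both lines was 0.02 with a 95% confidence interval from -0.39 to 0.43. Fbln5 (Entrez 23876, chr12:101746565-101819119), which tethers elastin to microfibrils and cells, was the only member below 0 over both lines, at -0.22 (SE 0.221, adjusted p = 0.552), with a range of -0.37 to -0.08 when single libraries were left out.

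Eln (Entrez 13717, chr5:134702595-134747368) had fold changes of opposite sign in the lines. It passed in neither without a replicate block, and fell in line 1 with it. It measured 404, 192 and 111 CPM in WT line 1 and 185, 109 and 81.4 CPM in RTF2-deficient line 1. In line 2 it measured 17.3, 12.2 and 15.1 CPM in WT and 14.9, 21.1 and 64.6 CPM in RTF2-deficient MEFs. The genotypes overlapped in both lines, and the RTF2-deficient mean of line 2 rested on replicate 3. The log2 fold change was -0.91 in line 1 (SE 0.563, adjusted p = 0.558) and 1.18 in line 2 (SE 0.577, adjusted p = 0.212). The difference of the effects was 2.09 (SE 0.806, 95% confidence interval 0.32 to 3.87), with an unadjusted p of 0.025 and an adjusted p of 0.425. Without the library of highest interferon score in each group it was 1.07 (adjusted p = 0.293), with 0.40 in line 2.

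Counted by line, 0 of 10 members passed in line 1, where 3.2% of all genes did and 0 members had an unadjusted p under 0.05 or passed with DESeq2. In line 2, 1 of 10 passed against 12.5% of all genes, and 4 members, Tnc, Postn, Thbs2 and Sparc, had an unadjusted p under 0.05, of which DESeq2 passed Tnc, Thbs2 and Sparc. For the difference between the lines 0 of 10 passed against 1.29% of all genes, with unadjusted p under 0.05 for Thbs2 and Eln and 0 members by DESeq2. None of the 10 members kept the genotypes apart in line 1, where 21.1% of all genes did so in either direction. In line 2, 3 of 10 (Tnc, Thbs2 and Sparc) were higher in every RTF2-deficient than in every WT library, against 14% of all genes.

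The replicate numbers carried information in line 1. Libraries with the same number deviated together from their group means there (correlations across genes of 0.43 to 0.625), and a fit of these 6 libraries with the replicate number as a block, added after seeing the data, passed 6 of 10 members where 29.1% of 13685 genes passed. Tnc was higher by 0.43 (adjusted p = 0.00353), Fbn1 by 0.30 (adjusted p = 0.0042), Thbs1 by 0.27 (adjusted p = 0.00669) and Fn1 by 0.23 (adjusted p = 0.0135) on the log2 scale. Eln fell by 0.81 (SE 0.106, adjusted p = 0.000894) and Fbln5 fell by 0.17 (adjusted p = 0.00497). Each of these 6 moved one way in all 3 pairs, but so did Postn and Sparc, and the share of all genes that did was not counted. The Eln log2 ratio within a pair was -1.13, -0.82 and -0.45 for replicates 1, 2 and 3. Postn, Thbs2, Sparc and Lox did not pass, at adjusted p from 0.0913 to 0.87.

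The members varied more between replicates of a group than most genes did. The SD of log2 CPM within groups was 0.79 for Eln, 0.67 for Postn, 0.45 for Fbln5, 0.39 for Thbs2, 0.37 for Lox and 0.34 for Tnc, and these 6 were within the top 10% of the 9281 genes with a mean of at least 10 CPM, whose median was 0.14. Sparc was the exception at 0.12, under the median of those genes. Fn1, Thbs1 and Fbn1 had SDs of 0.24, 0.20 and 0.26.

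The libraries in which these genes were high were shared between members. Postn, Thbs2, Eln, Lox and Fbln5 each had their highest value in WT line 1 replicate 1, RTF2-deficient line 1 replicate 1, WT line 2 replicate 1 and RTF2-deficient line 2 replicate 3. These are the libraries with the highest interferon score of their group, the median log2 CPM of 12 interferon-stimulated genes, at 4.07, 1.87, 8.91 and 7.35. Genes that were highest in this library in all 4 groups made up 5 of 10 members and 15.4% of all genes tested. Fbln5 showed it in all groups, with 991 against 644 and 509 CPM in WT line 1, 898 against 564 and 451 CPM in RTF2-deficient line 1, 789 against 623 and 577 CPM in WT line 2 and 782 against 479 and 390 CPM in RTF2-deficient line 2. Tnc did the reverse in 3 of the groups, being lowest in WT line 1 replicate 1, RTF2-deficient line 1 replicate 1 and RTF2-deficient line 2 replicate 3. The same libraries had the lowest G2/M score of their group, the median log2 CPM of 10 G2/M genes, at 6.82, 6.99, 6.64 and 6.69 against 6.93 to 7.28 in the others. The part of the interferon response and of cycling in these levels was not tested.

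**Figure D3:**
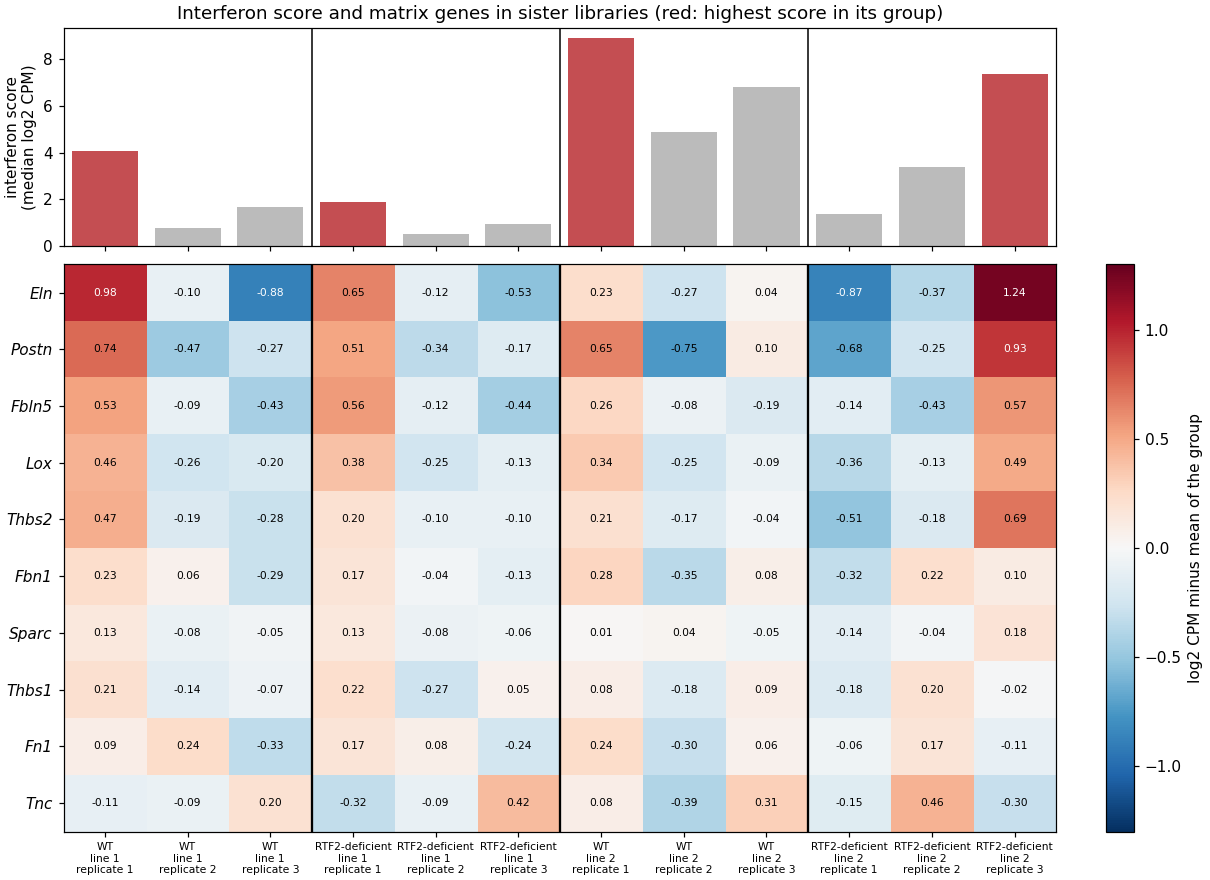
Top, interferon score of each of the 12 libraries (median log2 CPM of 12 genes), red where highest in its group. Bottom, log2 CPM of each member minus the mean of its group, with groups divided by black lines. Eln, Postn, Fbln5, Lox, Thbs2, Fbn1 and Sparc are above their group mean in every red library, by up to 1.24 for Eln, and Tnc is below it in 3 of them.

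Leaving these 4 libraries out, chosen after seeing the data, left 2 libraries in each group. In line 2, 3 of 10 members then passed against 21% of all genes, namely Tnc at 1.12 (adjusted p = 0.0292), Postn at 0.87 (adjusted p = 0.0486) and Thbs2 at 0.50 (adjusted p = 0.0164). The line 2 libraries that remained still differed in interferon score, at 4.88 and 6.80 in WT and 1.37 and 3.38 in RTF2-deficient MEFs, and its part was not tested.

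Lines of one genotype were also compared, which differ in mother, embryo and culture at once. WT line 2 was lower than WT line 1 for Eln, at a log2 fold change of -3.99 (SE 0.634, adjusted p = 0.00186), which is 15.9-fold lower, and for Sparc at -0.55 (SE 0.121, adjusted p = 0.0119). With single libraries left out the Eln value ran from -4.34 (without WT line 1 replicate 3) to -3.37 (without WT line 1 replicate 1), and it passed in all 12 such fits. DESeq2 passed 3 members, Thbs2, Sparc and Eln, which were also those with an unadjusted p under 0.05. With edgeR 2 of 10 members thus passed against 14% of all genes, and Eln alone was also beyond a log2 fold change of 1, as 6.76% of all genes were. Thbs1, Thbs2, Sparc and Eln were lower in every WT line 2 library than in every WT line 1 library, 4 of 10 members against 15% of all genes. The replicate numbers paired these groups as well (correlations of 0.305 to 0.426), and with the block 5 of 10 members passed against 17.6% of genes, all lower in line 2, adding Postn at -0.78 (adjusted p = 0.00886), Thbs2 at -0.89 (adjusted p = 0.00312) and Lox at -0.59 (adjusted p = 0.0129). Without the library of highest interferon score in each group 4 of 10 passed, Thbs2, Sparc, Eln and Lox, against 14.1% of all genes. The WT libraries that remained still differed in this score, at 0.765 and 1.69 in line 1 and 4.88 and 6.80 in line 2. Of 7 summed marker lists, 4 did not overlap between the WT lines, and the smooth muscle, endothelial and skeletal muscle lists did. The 5 cartilage and bone markers, nearly all of whose sum is Col2a1, came to between 1622 and 2350 CPM in WT line 1 and between 768 and 904 CPM in WT line 2, without overlap, with Col2a1 at a log2 fold change of -1.20 (adjusted p = 0.000538) and Ibsp at or near 0 in every library. Fibroblast markers, mostly Col1a1, Col1a2 and Vim, came to between 16230 and 21070 CPM in WT line 1 and between 13170 and 14150 CPM in WT line 2. Not all of them were lower there. Pdgfra lay between 17.2 and 21.7 CPM in WT line 2 against 3.49 to 14.35 CPM in WT line 1, and Col3a1 averaged 682 against 661 CPM. Epithelial markers, mostly Krt18, were higher in line 2, at 6.85 to 9.66 against 2.06 to 2.36 CPM, as were blood cell markers, mostly Cd68, at 6.46 to 9.66 against 2.43 to 3.63 CPM. The part of the interferon response and of these markers in the differences between lines was not tested.

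Between the RTF2-deficient lines 0 of 10 members passed against 1.94% of all genes, while 3 (Thbs1, Sparc and Eln) had an unadjusted p under 0.05 and DESeq2 passed 0. Eln had the widest difference, at -1.90 (SE 0.580, adjusted p = 0.157). Sparc and Eln were lower in every library of line 2, 2 of 10 members against 10% of all genes. Of the 7 summed marker lists all but the endothelial did not overlap between these lines. Cartilage and bone markers came to between 1919 and 2702 CPM in line 1 and between 935 and 1110 CPM in line 2. Fibroblast markers, mostly Col1a1, Col1a2 and Vim, came to between 16710 and 20630 against 13100 and 15380 CPM. Smooth muscle markers came to between 9098 and 9753 against 6342 and 7661 CPM. Epithelial, blood cell and skeletal muscle markers were higher in line 2, at no more than 18.4 CPM. Without the library of highest interferon score in each group 2 of 10 passed against 3.44% of all genes, Eln at -2.40 (adjusted p = 0.00557) and Lox at -0.64 (adjusted p = 0.0208). The libraries that remained had interferon scores of 0.516 and 0.946 in line 1 and 1.37 and 3.38 in line 2. The part of this score and of the markers was not tested.

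Eln and Postn were the members whose group means spanned at least 1 on the log2 scale. Over the 12 libraries, and among genes with a mean of at least 10 CPM, the genes most like Eln after centring were Tmtc1, with a root mean square difference of 0.50 in log2 CPM, and Igfbp2, with 0.62. Igfbp2, a secreted binder of insulin-like growth factors, averaged 910 and 1275 CPM in WT and RTF2-deficient line 1 and 142 and 189 CPM in line 2. By genotype in line 1 it went the other way from Eln, which averaged 236 and 125 CPM there. The genes most like Postn were F11r, a junctional adhesion molecule, at 0.29 and Selp, the P-selectin gene, at 0.30. In WT and RTF2-deficient line 1 Selp averaged 15.1 and 18.0 CPM, whereas Postn averaged 338.5 and 293.9 CPM.

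Related matrix genes from lists chosen by function were tested in the same fit. Of 14 elastic fibre and microfibril genes, all tested, 1 rose, 3 fell and 10 did not pass over both lines, with a median log2 fold change of -0.26. The genes that fell were Ltbp3 at -1.14 (SE 0.184, adjusted p = 0.0018, edgeR), Ltbp4 at -0.62 (SE 0.0921, adjusted p = 0.000974) and Efemp2 at -0.44 (SE 0.0962, adjusted p = 0.0111). Ltbp3 and Ltbp4 encode latent TGF-beta binding proteins, the second of which also takes part in elastic fibre assembly, and Efemp2 encodes fibulin-4, which brings lysyl oxidase to elastin. Ltbp4 passed in line 1 (-0.60, adjusted p = 0.0393) and in line 2 (-0.65, adjusted p = 0.0108). It was the only gene of this list to pass in line 1, so Ltbp3 and Efemp2 did not pass there without the replicate block. The gene that rose was Fbln1, by 0.29 (adjusted p = 0.0201), which was named after its values were seen.

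Of the lysyl oxidases and their processing enzymes, 8 of 9 were tested, of which 2 rose, 1 fell and 5 did not pass, with a median of 0.10. Bmp1, the metalloproteinase that trims procollagen and activates the lysyl oxidase precursor, rose by 0.72 (SE 0.0956, adjusted p = 0.000496), and its relative Tll1 rose by 0.59 (SE 0.151, adjusted p = 0.0248), a call lost in 3 of 12 fits without a single library and, at adjusted p = 0.0698, without the library of highest interferon score in each group. Pcolce, which enhances cleavage of procollagen by BMP1, fell by 0.45 (SE 0.0855, adjusted p = 0.00526).

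Of 25 matricellular and glycoprotein relatives, 21 were tested, of which 2 rose, 1 fell and 18 did not pass, with a median of -0.01. Thbs3, another thrombospondin, fell by 0.82 (SE 0.170, adjusted p = 0.00841). Ccn4 rose by 0.74 (SE 0.175, adjusted p = 0.0161) and Ccn2, the connective tissue growth factor gene, rose by 0.44 (SE 0.120, adjusted p = 0.0322). The Ccn2 call was lost in 6 of 12 fits without a single library and, at adjusted p = 0.0771, without the library of highest interferon score in each group. Of 15 receptors of matrix glycoproteins, 14 were tested, of which 2 rose and 12 did not pass, with a median of 0.21. They were the fibronectin receptor subunits Itgav at 0.50 (SE 0.103, adjusted p = 0.00816) and Itga5 at 0.39 (SE 0.105, adjusted p = 0.029), the latter lost in 8 of 12 fits without a single library. The 11 genes named by rule from these lists were picked for passing over both lines, a fit that holds the line 1 libraries, and they also passed in line 1 with the replicate block, which is no independent support. Against the 13.2% of all genes that passed, these lists held 4 of 14, 3 of 8, 3 of 21 and 2 of 14 genes that did. Between the WT lines, in edgeR with the replicate block, where 17.6% of genes passed, some of the genes named by rule differed too. They were Ltbp4 (-0.49), Bmp1 (-0.854), Tll1 (-1.04), Thbs3 (0.459) and Ccn4 (-1.46), at adjusted p between 0.000255 and 0.0213, and the others did not pass.

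**Figure D4:**
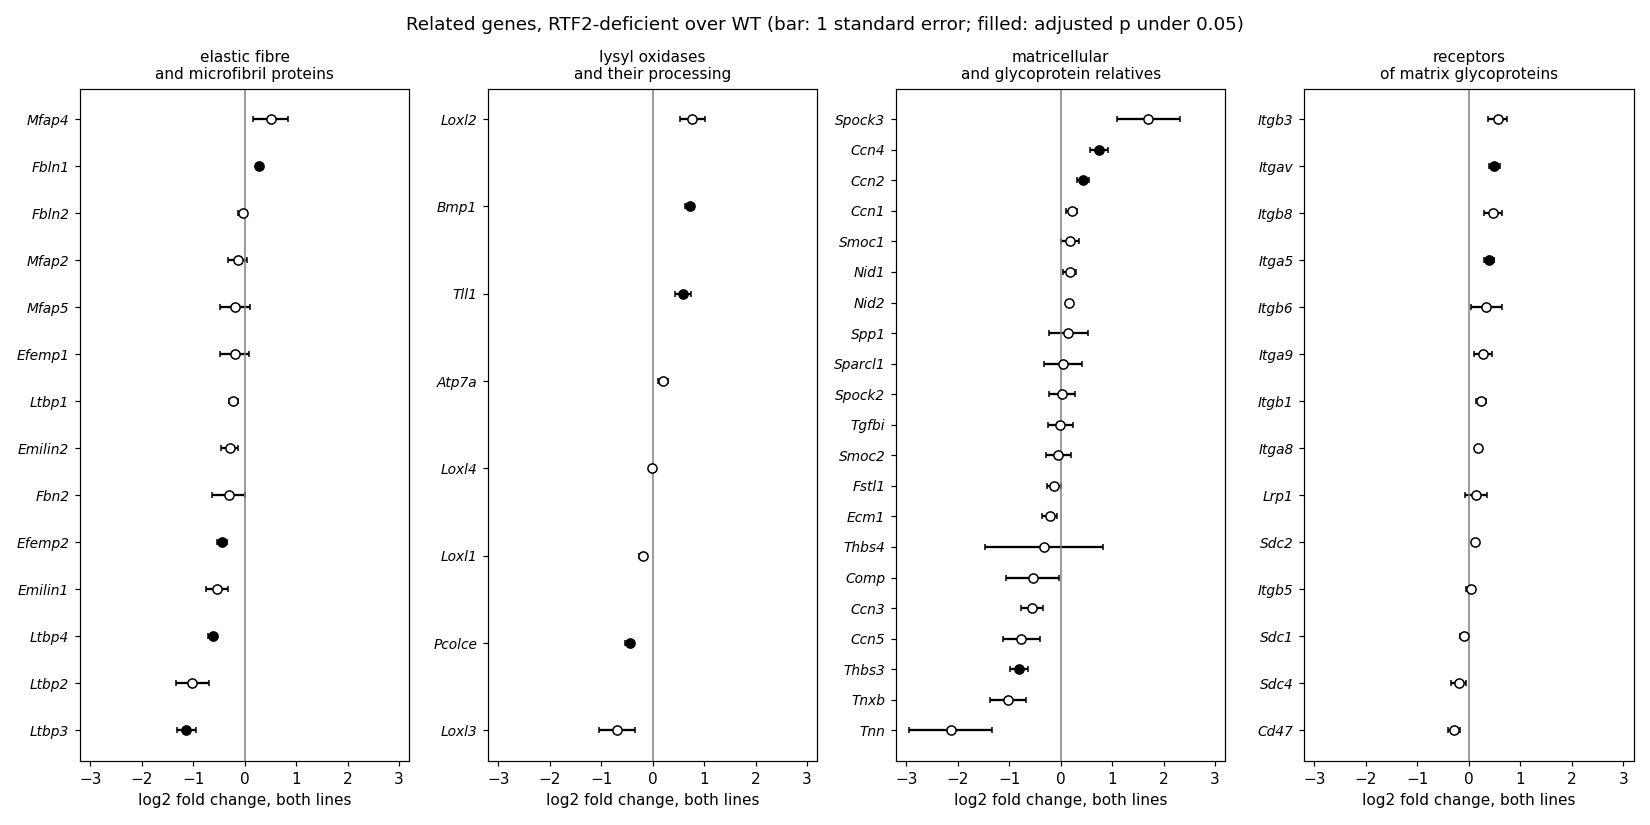
Log2 fold change over both lines, RTF2-deficient over WT (horizontal axis), of every tested gene of the 4 related lists, with bars of 1 standard error and filled points at adjusted p under 0.05. Ltbp3 at -1.14, Ltbp4 at -0.62 and Efemp2 at -0.44 are the filled points below 0 among elastic fibre genes, and Itgav and Itga5 are the filled points among receptors, both above 0.

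The libraries carried the markers of fibroblasts, whose 8 genes summed to between 16230 and 21070 CPM in the groups of line 1 and between 13100 and 15380 CPM in those of line 2, with none at 0. Of 6 epithelial markers Epcam, Krt5, Krt8 and Krt14 stayed under 1 CPM in every library, while Krt18 reached 12.4 CPM and Cdh1 reached 2.997 CPM. Of 4 endothelial markers Pecam1 and Cdh5 stayed under 1 CPM, whereas Kdr lay between 6.71 and 15.2 CPM and Tek between 2.84 and 12.5 CPM. Of 4 blood cell markers Ptprc and Adgre1 stayed under 1 CPM, whereas Cd68 lay between 1.44 and 8.95 CPM. Krt18 rose over both lines by 0.74 (adjusted p = 0.0381, edgeR) and Kdr rose by 0.58 (adjusted p = 0.0492), while the fibroblast marker Twist1 fell by 0.27 (adjusted p = 0.034). Of the 8 fibroblast markers 3 lay above 0 and 5 below over both lines, and only Twist1 passed. Other epithelial and endothelial markers had values below 0 that did not pass, at -0.34 for Epcam, -0.18 for Cdh1 and -0.03 for Tek. In line 2 Cd68 fell by 1.07 (adjusted p = 0.00809), while the only other blood cell marker tested lay above 0. Twist1 fell by 0.48 there (adjusted p = 0.00145), with 4 of the 8 fibroblast markers above 0 and 4 below. Genes of contractile fibroblasts and smooth muscle were abundant, with Acta2 between 2424 and 6884 CPM. Some summed lists did not overlap between genotypes. In line 1, WT against RTF2-deficient, they were epithelial (2.06 to 2.36 against 2.77 to 4.27 CPM) and endothelial (10.65 to 14.66 against 17.56 to 21.5 CPM). In line 2 they were blood cell (6.46 to 9.66 against 4.77 to 4.98 CPM), skeletal muscle (6.36 to 9.40 against 12.58 to 18.4 CPM), and cartilage and bone (768 to 904 against 935 to 1110 CPM). The other lists overlapped. The part of these markers in the levels of the members was not tested.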

How the data were processed

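RNA of 12 MEF libraries was analysed from raw read counts per gene, which the authors deposited without normalization and by Entrez Gene number. The methods name Salmon 0.8.2, tximport 1.8.0 and UCSC mm10 gene models, whereas the submitters' processing notes list HTSeq with mm10, and the counting tool is therefore not settled. Whether counting used strand is not given in the sources used here, so reads of overlapping antisense genes could be included.

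Symbols, positions and promoter windows came from RefSeq on GRCm38, which held 24045 of the 24100 identifiers, and exon lengths from GENCODE. Genes were kept by filterByExpr, normalized by TMM and tested with edgeR 4.0.16 in R 4.3.3 (glmQLFit and glmQLFTest, two-sided) with line and genotype as terms, or by contrasts of the 4 groups, over all 12 libraries. A gene passed at a Benjamini-Hochberg adjusted p under 0.05 over 14263 genes and was called when its log2 fold change also exceeded 1 in size. DESeq2 1.42.0 served as an alternative. The test was checked on simulated data with independent libraries. These held no line difference, replicate pairing or spread between embryos, so the check does not cover those. The study calls the libraries technical replicates. Intervals are at the 95% level. CPM of 3 counts, the limit for a gene at 0, was at most 0.0762, which covers counting error only.

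The members and lists were chosen with earlier results of these data known. Genes named beside the members were the 3 with the largest fold change among those that passed in each list, and for members spanning at least 1 the 2 genes nearest in pattern. Replicate numbers come from the sample titles. Same-numbered libraries correlated above 0.1 in all 3 pairs of the line 1 genotypes and of the WT lines, which were therefore also fitted with a replicate block, and not in pairs with RTF2-deficient line 2 (-0.587 to 0.17).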

Additional observations from a re-analysis of the deposited data

Results flagged for a closer look

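The genotype effect on 2 named genes differed between the lines by the interaction test of edgeR. For Bmp1 the effect in line 2 minus that in line 1 was 0.541 on the log2 scale (SE 0.111, adjusted p = 0.0431), from 0.45 in line 1 and 0.99 in line 2. For Ccn4 it was 0.99 (SE 0.197, adjusted p = 0.0392), from 0.25 in line 1, which passed only with the replicate block (0.24, adjusted p = 0.00276), and 1.24 in line 2. Without the library of highest interferon score in each group neither difference passed, at 0.455 for Bmp1 (adjusted p = 0.141) and 0.91 for Ccn4 (adjusted p = 0.103). Bmp1 averaged 234 and 319 CPM in WT and RTF2-deficient line 1 and 131 and 259 CPM in line 2. Ccn4 averaged 310 and 368 CPM in line 1 and 113 and 266 CPM in line 2. In edgeR with the replicate block, WT line 2 against WT line 1 was at -0.854 for Bmp1 (adjusted p = 0.000882) and -1.46 for Ccn4 (adjusted p = 0.000255). Groups of 3 libraries were not tested for single outlying samples.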

How the results depend on the processing

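Tnc kept its direction in every alternative run, and its log2 fold change lay between 0.563 and 0.805 when single libraries were left out, passing in 9 of 12 such fits. Over both lines 1 member passed, against 2 with DESeq2 (Tnc and Sparc, adjusted p = 0.0353), 0 with summed triplicates and 0 to 1 with a library left out. Over all genes 1878 passed, against 2702 with DESeq2, 1227 without the line term, 0 with summed triplicates (2737 at an unadjusted p under 0.05, 4 members among them) and 1158 to 1974 with a library left out. In line 1 the count of 0 held with each library left out. In line 2 the count of 1 became 0 in a fit of its 6 libraries alone (Tnc 0.96, adjusted p = 0.0745), 3 with DESeq2, 3 without the 4 libraries of highest interferon score in their group and 0 to 1 with a library left out, where Thbs2 passed in place of Tnc without RTF2-deficient line 2 replicate 1. Between WT lines the count of 2 became 3 with DESeq2, 4 without those 4 libraries and ranged from 2 to 3, and between RTF2-deficient lines the count of 0 became 2 and ranged from 0 to 1 (Eln, without RTF2-deficient line 2 replicate 3). The difference between lines stayed at 0 members.

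The fold change of Eln over both lines reversed to -0.66 without the line term and -0.167 without the 4 libraries, and ranged from -0.382 to 0.508 with a library left out. That of Lox reversed to -0.0062 without the 4 libraries and -0.0169 with a correction for GC content, and ranged from -0.0994 to 0.149. Neither passed in the analysis reported, and the cause was not tested. Single libraries also moved Postn (0.126 to 0.744) and Thbs2 (0.0891 to 0.505) over both lines.

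The replicate numbers did not pair RTF2-deficient line 2 with any other group, and in 5 members its replicate 3 was high where replicate 1 was high in the other groups. With the numbers as a block over all 12 libraries regardless, Tnc was at 0.703 (adjusted p = 0.0404) and 1 member passed over both lines. The block in the 6 libraries compared gave 6 members in line 1 and 5 between WT lines. Leaving out single libraries ended the call of Tll1, Ccn2 and Itga5 in some fits and of none of the other genes named from the lists by rule. Only 2 lines stand behind the genotype comparison over both lines, and a single line behind that of line 1 or of line 2.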

Other observations

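Loxl2, a lysyl oxidase relative that was named after its values were seen, had a log2 fold change of 0.08 in line 1 (SE 0.174, adjusted p = 0.916) and rose by 1.46 in line 2 (SE 0.178, adjusted p = 0.000617, edgeR). The difference between these effects was 1.39 (SE 0.248, adjusted p = 0.0251). Loxl2 averaged 849 and 895 CPM in WT and RTF2-deficient line 1 and 288 and 793 CPM in those of line 2. The group that stood apart was thus WT line 2, and RTF2-deficient line 2 stayed below the mean of WT line 1. Over both lines it did not pass, at 0.77 (adjusted p = 0.0556). Ltbp2, the microfibril relative with the lowest fold change after Ltbp3 in its list, was at -1.02 over both lines (adjusted p = 0.0538), with -0.89 in line 1 and -1.15 in line 2.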
